A study of Mus musculus with 19 samples.

Results

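CD4 T cells sorted from liver metastases were compared between Vav1CreTet2KO mice, in which Tet2 is deleted by a Cre recombinase under Vav1 control, and Tet2fl/fl mice, which carry floxed Tet2 and serve as the study's controls. The comparison took every gene of the 3 Vav1CreTet2KO and the 3 Tet2fl/fl CD4 libraries, 6 of the 19 libraries of the series. The other 3 CD4 libraries came from Cd4CreTet2KO mice, in which the Cre is under Cd4 control. They entered the filter on low counts, the normalization and the shared estimate of spread, but not the comparison itself. All mice had received Venus-AKTPM/LOH colorectal cancer cells by injection into the spleen, and the tumours in the liver were taken at day 30. Leukocytes were freed from the tumours with collagenase A and DNase I, enriched on CD45 and sorted with antibodies to CD45, CD3ε, CD4 and CD8α. The labels describe the replicates as biological and give no age.

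TET2 is a dioxygenase that oxidises 5-methylcytosine in DNA, the first step of active demethylation, and its gene is among those most often mutated in clonal haematopoiesis. Vav1-driven Cre acts throughout the blood lineage, so that in these mice macrophages, dendritic cells, B cells and other immune cells of the tumour lose Tet2 along with the T cells. CD4 T cells in tumours are a mixture of Foxp3-expressing regulatory T cells, which restrain other lymphocytes, and conventional helper cells. Repeated stimulation through the T cell receptor brings on inhibitory receptors such as PD-1 and TIGIT, whereas the first minutes to hours after stimulation bring on immediate early factors such as FOS, JUN and EGR1.

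The libraries differed in depth. The Vav1CreTet2KO libraries held 707866, 14539928 and 7501026 reads in genes (replicates 1, 2 and 3), against 9096532, 15354518 and 16451285 in the Tet2fl/fl libraries. Reads were found for 7761, 15106 and 13689 genes in the Vav1CreTet2KO libraries and for 13541 to 14347 genes in the Tet2fl/fl libraries. A count of 0 therefore allowed a level of up to 4.24 CPM (read counts scaled to the total of the library; the limit is 3 reads) in Vav1CreTet2KO replicate 1, against 0.228 and 0.395 CPM in replicates 2 and 3 and 0.184 to 0.324 CPM in the Tet2fl/fl libraries. Such limits cover counting error only. Of the 13554 genes tested, 6133 had no read in Vav1CreTet2KO replicate 1. That library also correlated least with the other CD4 libraries, with a median of 0.71, against 0.83 for replicate 2 and 0.89 for replicate 3. The labels give no batch or date.

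The CD4 identity of the libraries was visible in the markers. Cd4, the coreceptor used in the sort, had 321, 583 and 967 CPM in Vav1CreTet2KO libraries and 657, 722 and 827 CPM in Tet2fl/fl libraries. Cd8a had at most 1.85 CPM in the Vav1CreTet2KO libraries and at most 5.45 CPM in the Tet2fl/fl libraries. Cd8b1, the other CD8 marker, had 0, 8.91 and 29.1 CPM in Vav1CreTet2KO, against 10.5, 5.78 and 26.7 CPM in Tet2fl/fl libraries. The 6 T cell markers summed to 3090, 2980 and 2350 CPM in Vav1CreTet2KO libraries, against 2270, 2030 and 2580 CPM in Tet2fl/fl libraries. Markers of B cells summed to no more than 3.16 CPM in Vav1CreTet2KO and 7.79 CPM in Tet2fl/fl libraries. The 3 plasmacytoid dendritic cell markers (Siglech, Klk1 and Ly6d) summed to 86.3, 527 and 565 CPM in Vav1CreTet2KO libraries, against 50.9, 36.5 and 250 CPM in Tet2fl/fl libraries, and the ranges overlapped. The 6 markers of macrophages and monocytes summed to 188.1, 157 and 62.1 CPM in Vav1CreTet2KO, against 98.3, 2.34 and 174 CPM in Tet2fl/fl libraries, and also overlapped.

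Tet2 itself did not differ beyond the spread between libraries. The gene lies on chromosome 3 between 133169440 and 133250900 in the coordinates of the deposited table, for which the labels and headers name no matching build. It had 105, 113 and 65.4 CPM in Vav1CreTet2KO libraries, against 83.2, 144 and 85.0 CPM in Tet2fl/fl libraries, and the groups overlapped. The log2 fold change was -0.16 ± 0.38 (standard error, adjusted p = 0.911, edgeR's quasi-likelihood test with Benjamini-Hochberg adjustment). Without Vav1CreTet2KO replicate 3 it was 0.04, and without Tet2fl/fl replicate 2 it was 0.15. A conditional allele usually removes part of a gene while the rest is still transcribed, and a count over the whole gene does not resolve the deleted part, so it does not check the genotype. Of the other 9 genes on the list of TET, DNMT and related enzymes, edgeR called none on all libraries. Tdg, a glycosylase that removes oxidised methylcytosine, was lower without overlap (log2 fold change -1.12, unadjusted p = 0.0406, edgeR), and DESeq2 called it (adjusted p = 0.0293). DESeq2 also called Idh2, a mitochondrial isocitrate dehydrogenase, as higher (adjusted p = 0.037), which did not pass with edgeR (log2 fold change 1.13, unadjusted p = 0.0687). Tet3 had 190, 254 and 382 CPM in Vav1CreTet2KO, against 289, 453 and 331 CPM in Tet2fl/fl libraries.

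A single gene passed the test across the 13554 genes (0.00738%). Ccnb1ip1, which encodes an E3 ligase known for its part in meiotic crossing over, rose 2.78 ± 0.31 on the log2 scale (adjusted p = 0.00486, edgeR). It had 1311, 1350 and 712 CPM in Vav1CreTet2KO libraries, against 136, 135 and 215 CPM in Tet2fl/fl libraries. All 3 Vav1CreTet2KO libraries stood above all Tet2fl/fl libraries, and the Cd4CreTet2KO libraries had 381, 269 and 286 CPM. The log2 fold change lay between 2.60 and 3.03 when 1 library was left out, but the call was lost without Tet2fl/fl replicate 1 or replicate 2, where no gene was called, with the highest adjusted p for Ccnb1ip1 at 0.133. The deposited table places Ccnb1ip1 on chromosome 14 between 51026705 and 51045189. In the GRCm38 annotation (GENCODE) the gene has the same length, 18485 bases, and on the same strand 233 of the 319 bases of Rpph1, the RNA component of ribonuclease P, lie within its exons, which cover 1883 bases. Rpph1 was not analysed here, and reads of the 2 genes from that overlap cannot be told apart, so the gene that rose is uncertain.

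**Figure D1:**
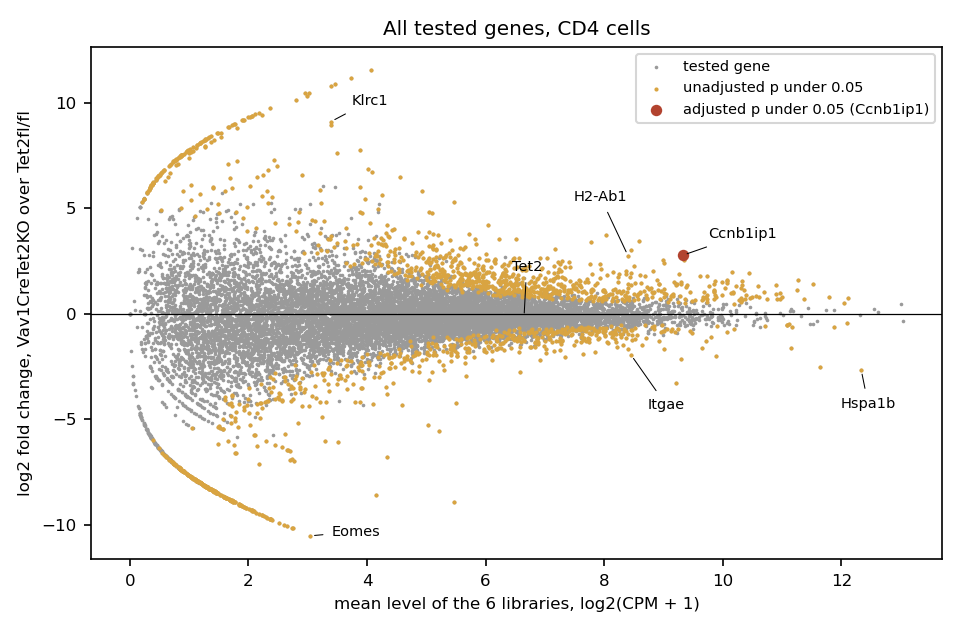
Log2 fold change of Vav1CreTet2KO over Tet2fl/fl libraries against the mean level over the 6 libraries, log2(CPM + 1), for 13554 tested genes. Amber points have an unadjusted p under 0.05 and the red point is Ccnb1ip1, the only gene with an adjusted p under 0.05. The curved edges at low levels are genes with no read in one of the groups.

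At an unadjusted p under 0.05, 911 genes were higher (6.72%) and 706 were lower (5.21%) in the Vav1CreTet2KO libraries, and these are called nominally higher or lower in what follows. The 3 Vav1CreTet2KO libraries stood above all 3 Tet2fl/fl libraries for 635 genes (4.68%) and below them for 1344 genes (9.92%). The median log2 fold change of all tested genes was -0.16, with 5905 genes positive and 7641 negative. These shares and this median are the background for the gene groups below. None of the 46 gene lists held a gene called by edgeR on all libraries. With DESeq2, 32 of the lists held at least 1 called gene, and with edgeR 31 did so without Vav1CreTet2KO replicate 3 and 3 without replicate 1. The median of all tested genes was -0.40 without replicate 3 and -0.015 without replicate 1, so medians of lists in those settings are read against these values. In these bulk libraries fewer cells of a type and less RNA per cell cannot be told apart.

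Without the shallow Vav1CreTet2KO replicate 1, 19 of 14534 genes passed (0.131%), 9 higher and 10 lower. These genes are named here because they were called in that setting, after their values were seen. Socs3, a feedback inhibitor of cytokine receptor signalling through STAT3, fell by 1.66 on the log2 scale in that setting (adjusted p = 0.0246, edgeR). It had 161, 168 and 152 CPM in Vav1CreTet2KO libraries, against 414, 556 and 571 CPM in Tet2fl/fl libraries. The Vav1CreTet2KO values, the left-out library included, were close together and all below the Tet2fl/fl values. With all 6 libraries the Socs3 change was -1.68 ± 0.25 (adjusted p = 0.0744), which missed the threshold.

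The other genes that fell without replicate 1 were Dock3 (a guanine nucleotide exchange factor), Sdhaf1 (an assembly factor of succinate dehydrogenase), Nol4l, Ecm1 (a secreted matrix protein), Dclk2 (a kinase), Akap12 (a scaffold of protein kinase A), Aim2 (a sensor of cytosolic DNA) and the gene models Gm47050 and Gm17334. Sdhaf1 had 0, 1.45 and 3.82 CPM in Vav1CreTet2KO libraries, against 35.95, 53.6 and 43.8 CPM in Tet2fl/fl libraries. Dock3 had 0, 0.152 and 0.527 CPM in Vav1CreTet2KO, against 12.2, 26.4 and 23.3 CPM in Tet2fl/fl libraries. Both were nearly without reads in all Vav1CreTet2KO libraries and had reads in all Tet2fl/fl libraries. Aim2 was another case, since it had 224 CPM in the shallow library, above every other library, and 17.7 and 27.8 CPM in the other Vav1CreTet2KO libraries, against 79.0, 102 and 107 CPM in Tet2fl/fl libraries. With all 6 libraries its log2 fold change was -0.21. Ecm1 likewise had 84.9 CPM in the shallow library and 17.2 and 8.17 CPM in the other Vav1CreTet2KO libraries, against 107, 121 and 91.7 CPM in Tet2fl/fl libraries.

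The genes that rose without replicate 1 were Ccnb1ip1, the histone genes H1f4, H2bc15 and H3c2, Kctd12 (an auxiliary subunit of the GABA-B receptor), Zc3h12c (of the Regnase family of ribonucleases), Spib (an ETS factor of B cells and plasmacytoid dendritic cells), the chemokine gene Ccl4 and the receptor gene Slamf9. Kctd12 had 226, 281 and 300.1 CPM in Vav1CreTet2KO libraries, against 83.1, 112 and 94.4 CPM in Tet2fl/fl libraries. Zc3h12c had 69.3, 165 and 80.1 CPM in Vav1CreTet2KO, against 27.1, 28.6 and 23.2 CPM in Tet2fl/fl libraries. The groups did not overlap for either gene. Slamf9 had no read in the Tet2fl/fl libraries and 0, 15.1 and 25.4 CPM in Vav1CreTet2KO libraries. Its 391 reads in the Vav1CreTet2KO group came from replicates 2 and 3. Spib had 35.4, 95.1 and 84.2 CPM in Vav1CreTet2KO, against 3.24, 11.95 and 14.2 CPM in Tet2fl/fl libraries, without overlap. The sum of the plasmacytoid dendritic cell markers given above overlapped between the groups only through the shallow replicate 1. Of 8 tested genes on the longer list of these cells, 4 were nominally higher and 0 nominally lower, with a median of 1.76. Without replicate 1, 7 of 8 were nominally higher and the median was 2.11. The part of such cells in the Spib change was not tested.

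Vav1CreTet2KO replicate 3 lay nearer to the Tet2fl/fl libraries than replicates 1 and 2 for genes such as Jun, Hspa1b and Rps23, whose values are given below. Without it 819 of 14409 genes passed (5.68%), 396 higher and 423 lower, although the shallow library then was 1 of only 2 Vav1CreTet2KO libraries. Without Vav1CreTet2KO replicate 2, 3 genes passed. DESeq2 on all 9 libraries called 581 of 13038 genes (4.46%), 332 higher and 249 lower. The bar plot of calls shows how far the number of genes depended on the tool and on that library.

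**Figure D2:**
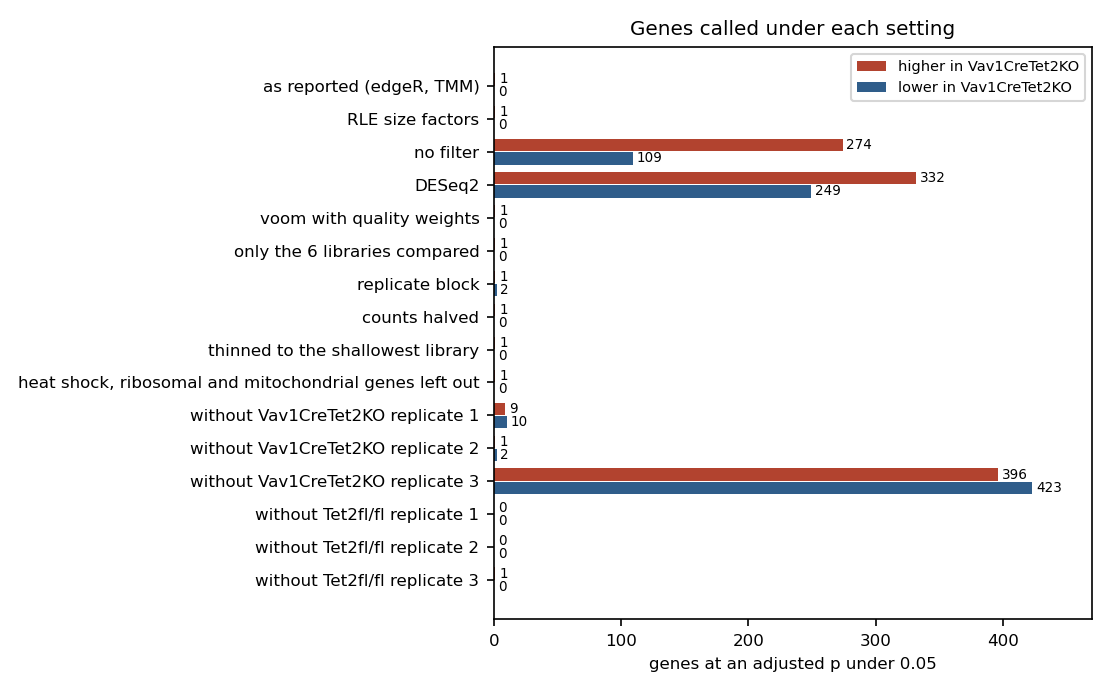
Number of genes at an adjusted p under 0.05 in each setting, with genes higher in Vav1CreTet2KO libraries in red and genes lower in them in blue. The setting used for the results called 1 gene, DESeq2 called 332 higher and 249 lower, and the fit without Vav1CreTet2KO replicate 3 called 396 higher and 423 lower.

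Genes of regulatory T cells were mostly lower in the Vav1CreTet2KO libraries, and the libraries differed widely among themselves. All 20 genes of the list were tested, 17 had a negative log2 fold change, 5 were nominally lower and 0 nominally higher, and the median was -0.61. Foxp3, the transcription factor that defines these cells, had 73.6, 528 and 233 CPM in Vav1CreTet2KO libraries, against 743, 779 and 559 CPM in Tet2fl/fl libraries (log2 fold change -1.30 ± 0.51, adjusted p = 0.348, edgeR). The highest Vav1CreTet2KO library, replicate 2, was just under the lowest Tet2fl/fl library. The median depended on the library left out, at -0.44 without replicate 1, -1.21 without replicate 2 and -0.27 without replicate 3. No median of all genes is given for the fit without replicate 2, so list medians there have no such background. Without replicate 3 the list median was no lower than the median of all genes in that setting, and 1 member, Itgae, was called. The 4 regulatory T cell markers (Foxp3, Il2ra, Ikzf2 and Ctla4) summed to 1260, 2910 and 851 CPM in Vav1CreTet2KO, against 2580, 2530 and 1850 CPM in Tet2fl/fl libraries.

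Itgae, the integrin chain CD103 that binds E-cadherin, had the smallest p of that list. It had 105, 235 and 89.2 CPM in Vav1CreTet2KO libraries, against 648, 593 and 425 CPM in Tet2fl/fl libraries (log2 fold change -1.96 ± 0.36, adjusted p = 0.110, edgeR). Ikzf2, which encodes Helios, had 291, 292 and 165 CPM in Vav1CreTet2KO, against 495, 585 and 417 CPM in Tet2fl/fl libraries. The groups did not overlap for either gene, and edgeR called neither on all libraries. Itgae was called by DESeq2 on all libraries (adjusted p = 0.00068) and by edgeR without replicate 3 (adjusted p = 0.0224), whereas Ikzf2 was called in neither. Gpr83, a G protein-coupled receptor found on regulatory T cells, had no read in the Vav1CreTet2KO libraries and 12.7, 8.83 and 1.10 CPM in Tet2fl/fl libraries, at least 54-fold lower against a floor of 3 reads over the group, the floor used for each such bound. Lrrc32, which presents latent TGF-β on regulatory T cells, had 19.8, 78.1 and 27.8 CPM in Vav1CreTet2KO, against 130, 151 and 59.1 CPM in Tet2fl/fl libraries, with overlap. Il2ra (303, 771 and 166 CPM in Vav1CreTet2KO, against 574, 431 and 465 CPM in Tet2fl/fl libraries) and Ctla4 (593, 1317 and 287 CPM in Vav1CreTet2KO, against 768, 738 and 404 CPM in Tet2fl/fl libraries) overlapped.

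Inhibitory receptors had no common direction. Of 15 tested genes, 2 were nominally lower and 1 nominally higher, 7 were positive and 8 negative, and the median of -0.06 was 0.09 without replicate 1 and 0.27 without replicate 3. Pdcd1, which encodes PD-1, had 66.5, 75.7 and 51.7 CPM in Vav1CreTet2KO libraries, against 190, 147 and 145 CPM in Tet2fl/fl libraries (log2 fold change -1.33 ± 0.33, adjusted p = 0.153, edgeR). Tigit had 100.4, 88.9 and 64.6 CPM in Vav1CreTet2KO, against 236, 221 and 156 CPM in Tet2fl/fl libraries (-1.30 ± 0.36, adjusted p = 0.189). For both receptors all Vav1CreTet2KO libraries were below all Tet2fl/fl libraries. Lag3, a receptor for MHC class II, was the nominally higher gene with 181, 43.7 and 36.8 CPM in Vav1CreTet2KO, against 21.9, 8.83 and 39.4 CPM in Tet2fl/fl libraries, and its groups overlapped. Without the shallow replicate 1 the Lag3 log2 fold change was 0.81 (unadjusted p = 0.15), against 1.83 with it, and 0 genes of the list were nominally higher. Havcr2, which encodes TIM-3, had 50.9, 49.3 and 8.96 CPM in Vav1CreTet2KO, against 54.96, 28.95 and 25.96 CPM in Tet2fl/fl libraries, and also overlapped.

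Among 15 regulators of exhaustion, 3 were nominally lower and 2 nominally higher, with a median of -0.21. Tox2, a relative of the exhaustion factor Tox, had 17.0, 18.7 and 16.3 CPM in Vav1CreTet2KO libraries, against 53.4, 65.7 and 66.2 CPM in Tet2fl/fl libraries (log2 fold change -1.83 ± 0.57, adjusted p = 0.245, edgeR). Tox itself had 130, 103 and 93.3 CPM in Vav1CreTet2KO, against 116, 160 and 120 CPM in Tet2fl/fl libraries, and overlapped. Eomes, a T-box factor of effector and exhausted cells, had no read in any Vav1CreTet2KO library and 19.2, 13.9 and 10.4 CPM in Tet2fl/fl libraries, at least 104-fold lower (adjusted p = 0.113). The deepest Vav1CreTet2KO library, replicate 2, had no Eomes read either. Nr4a3, an orphan nuclear receptor induced by receptor signals, had 1763, 1029 and 833 CPM in Vav1CreTet2KO, against 757, 763 and 537 CPM in Tet2fl/fl libraries (log2 fold change 0.79 ± 0.28, adjusted p = 0.313). Without the shallow replicate 1 its change was 0.46 (unadjusted p = 0.0901), 4 genes of the list were nominally lower and 0 nominally higher, and the median was -0.34. Without replicate 2 the median was -0.42, again with no median of all genes to set beside it.

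**Figure D3:**
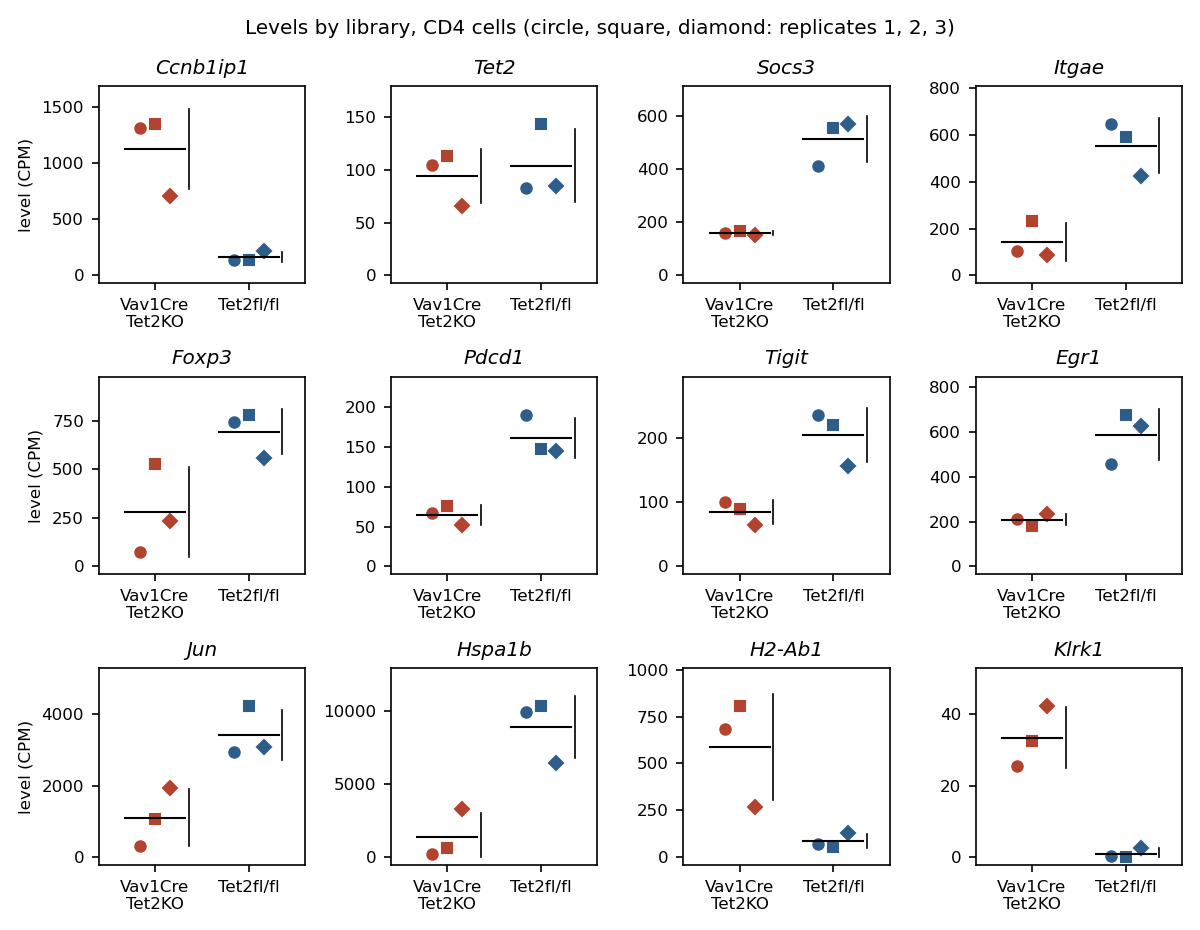
CPM of 12 genes in each library, with Vav1CreTet2KO libraries in red and Tet2fl/fl libraries in blue; horizontal lines are means and vertical lines are ± 1 SD (n = 3 each). Ccnb1ip1, H2-Ab1 and Klrk1 lay higher in all Vav1CreTet2KO libraries, Tet2 overlapped, and the other genes lay lower in all Vav1CreTet2KO libraries.

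Immediate early factors were lower in part. Of 13 factors induced by the T cell receptor, 2 were nominally lower and 3 nominally higher (median -0.30). Egr1, a zinc finger factor, had 209, 182.01 and 233 CPM in Vav1CreTet2KO libraries, against 458, 675 and 626 CPM in Tet2fl/fl libraries (log2 fold change -1.50 ± 0.27, adjusted p = 0.110, edgeR). Egr2 was nominally lower too, with 2.83, 14.3 and 25.7 CPM in Vav1CreTet2KO, against 55.9, 44.3 and 60.1 CPM in Tet2fl/fl libraries. The groups did not overlap for either, whereas Nr4a2 (437, 276 and 112 CPM in Vav1CreTet2KO, against 142, 159 and 81.5 CPM in Tet2fl/fl libraries) was nominally higher with overlap. The nominally higher genes rested on the shallow replicate 1, without which 3 genes of the list were nominally lower and 0 nominally higher.

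Of 11 tested AP-1 factors out of 12, which bind DNA as FOS and JUN dimers, 6 were nominally lower and 0 nominally higher, and the median was -0.78. Fos had 130, 483 and 542 CPM in Vav1CreTet2KO libraries, against 1195, 1329 and 1111 CPM in Tet2fl/fl libraries (log2 fold change -1.64 ± 0.40, adjusted p = 0.153, edgeR). Jun had 330, 1073 and 1925 CPM in Vav1CreTet2KO, against 2940, 4230 and 3085 CPM in Tet2fl/fl libraries (-1.61 ± 0.45, adjusted p = 0.206). The shallow library was lowest for both genes, and replicate 3 of the Vav1CreTet2KO group was nearest to the Tet2fl/fl libraries. Junb had 1525, 1698 and 2125 CPM in Vav1CreTet2KO, against 2457, 2721 and 2501 CPM in Tet2fl/fl libraries, without overlap. Fosl1 had no read in Vav1CreTet2KO libraries and 2.59, 5.97 and 0.857 CPM in Tet2fl/fl libraries, at least 22.4-fold lower (adjusted p = 0.270, edgeR). This and the other such bounds cover counting error only, not the spread between animals. Fosb and Jund were nominally lower too and did not overlap. Without replicate 1, 6 members were nominally lower and the median was -0.62. Without replicate 3 the median was -1.51, and edgeR called 4 members lower. DESeq2 called 2 on all libraries. Dusp1, a phosphatase that switches off MAP kinases and an early gene in its own right, had 348, 471 and 652 CPM in Vav1CreTet2KO, against 1112, 1502 and 928 CPM in Tet2fl/fl libraries, without overlap.

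The interleukin 2 and STAT5 pathway list, which sustains regulatory T cells and memory cells, held 15 tested genes, all with a negative log2 fold change (median -0.68), of which 6 were nominally lower. Jak3, the kinase bound to the common γ chain, had 102, 139 and 118 CPM in Vav1CreTet2KO libraries, against 348, 285 and 286 CPM in Tet2fl/fl libraries (log2 fold change -1.36, unadjusted p = 1.91e-04). Cish, a feedback inhibitor induced by STAT5, had 136, 148 and 111 CPM in Vav1CreTet2KO, against 230, 230 and 202 CPM in Tet2fl/fl libraries. For both, and for Socs3 on the same list, the groups did not overlap. Socs2 had 0, 19.5 and 19.5 CPM in Vav1CreTet2KO, against 52.5, 50.0 and 46.8 CPM in Tet2fl/fl libraries, and Bcl2, which protects from apoptosis, had 127, 128 and 260 CPM in Vav1CreTet2KO, against 206, 509 and 323 CPM in Tet2fl/fl libraries, with overlap. The receptor chain genes Il2ra, Il2rb and Il2rg were neither nominally higher nor lower, with log2 fold changes of -0.25, -0.22 and -0.02.

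Guanylate-binding proteins and related GTPases induced by interferon γ had a median of -0.66 over 15 tested genes, with 13 negative, 3 nominally lower and 0 nominally higher. Gbp7 had 67.9, 237 and 135 CPM in Vav1CreTet2KO libraries, against 385, 486 and 286 CPM in Tet2fl/fl libraries. Gbp6 had 185.3, 171 and 164 CPM in Vav1CreTet2KO, against 299, 258 and 361 CPM in Tet2fl/fl libraries, and neither gene overlapped. Ifng, the gene of the cytokine, had 92.0, 90.7 and 119 CPM in Vav1CreTet2KO, against 67.8, 36.7 and 61.4 CPM in Tet2fl/fl libraries, which was higher in all Vav1CreTet2KO libraries but did not pass (log2 fold change 0.86 ± 0.48, adjusted p = 0.508, edgeR). The type I interferon list of 27 genes had a median of 0.07 with 2 genes, Isg15 and Bst2, nominally higher. Without the shallow replicate 1 the median was 0.37 and 1 gene, Bst2, was nominally higher.

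Heat shock chaperones, which hold and refold proteins and are induced by the factor HSF1 after stress, were mostly lower, although edgeR called no member on all libraries. All 14 genes of the list were tested, 10 were nominally lower and 0 nominally higher, 7 did not overlap and the median was -0.89. The list took 1.29 ± 0.263% of the reads of Vav1CreTet2KO libraries, against 3.03 ± 0.591% in Tet2fl/fl libraries (SD, n = 3 each; two-sided exact permutation test p = 0.1, the smallest that 3 against 3 allows). The Cd4CreTet2KO libraries, compared with the same Tet2fl/fl libraries, had 1.32%. The groups did not overlap, since the lowest Tet2fl/fl library had 2.36% and the highest Vav1CreTet2KO library 1.6%. Without replicate 1, 8 members were nominally lower and the median was -1.04. DESeq2 called 2 members lower, Hspb1 and Dnajb1, and edgeR called 3 without replicate 3 and 6 without a filter on low counts.

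The proximal promoters of 3 members are shown because heat shock factors bind inverted repeats of nGAAn there. The sequences are from RefSeq (GRCm38.p6), run 5′ to 3′ from 250 bases before to 50 bases after the annotated start, and capitals mark GAANNTTC, which reads the same on both strands.
Hspa1b, chr17:34959189-34959488, minus strand: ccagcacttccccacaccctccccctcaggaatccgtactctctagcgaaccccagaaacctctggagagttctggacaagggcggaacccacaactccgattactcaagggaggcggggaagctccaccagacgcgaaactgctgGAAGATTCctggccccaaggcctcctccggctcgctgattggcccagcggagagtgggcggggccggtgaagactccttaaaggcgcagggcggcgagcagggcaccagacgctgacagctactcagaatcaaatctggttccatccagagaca
Hspb1, chr5:135887669-135887968, plus strand: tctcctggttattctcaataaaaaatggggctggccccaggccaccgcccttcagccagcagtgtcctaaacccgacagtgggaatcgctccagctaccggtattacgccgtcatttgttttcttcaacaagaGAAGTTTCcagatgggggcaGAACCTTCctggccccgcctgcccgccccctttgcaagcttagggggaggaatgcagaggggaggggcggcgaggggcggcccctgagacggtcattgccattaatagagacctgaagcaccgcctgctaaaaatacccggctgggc
Dnajb1, chr8:83607925-83608224, plus strand: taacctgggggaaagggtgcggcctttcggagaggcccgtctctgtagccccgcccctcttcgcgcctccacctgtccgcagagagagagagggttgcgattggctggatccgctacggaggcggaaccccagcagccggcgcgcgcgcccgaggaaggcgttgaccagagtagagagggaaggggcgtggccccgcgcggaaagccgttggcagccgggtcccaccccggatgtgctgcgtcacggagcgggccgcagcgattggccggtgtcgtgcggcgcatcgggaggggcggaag
Of the 14 list members, 11 had a promoter window, and 8 of these (72.7%) held GAANNTTC, against 2442 of all 27025 genes with a window (9.0%). The Hspb1 window held 2 matches, the Hspa1b window 1 and the Dnajb1 window 0, and a match is a description of the letters and not a measured site.

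The inducible HSP70 genes varied between libraries. Hspa1b had 214, 627 and 3310 CPM in Vav1CreTet2KO libraries, against 9963, 10370 and 6468 CPM in Tet2fl/fl libraries (log2 fold change -2.67 ± 0.80, adjusted p = 0.256, edgeR). Its near-identical copy Hspa1a had 46.7, 408 and 2328 CPM in Vav1CreTet2KO, against 6019, 6186 and 4018 CPM in Tet2fl/fl libraries; reads of the 2 copies may be split between them by the counting, so their separate values are uncertain. For both, the shallow library was the lowest of the Vav1CreTet2KO libraries and replicate 3 the highest. Dnajb1, the HSP40 partner of HSP70, had 42.4, 191 and 451 CPM in Vav1CreTet2KO, against 1141, 1273 and 640 CPM in Tet2fl/fl libraries (-2.13 ± 0.57, adjusted p = 0.180). Bag3, a cochaperone, had 89.1, 56.6 and 51.7 CPM in Vav1CreTet2KO, against 277, 200 and 77.5 CPM in Tet2fl/fl libraries. The small chaperone Hspb1 had no read in Vav1CreTet2KO libraries and 14.7, 2.86 and 16.8 CPM in Tet2fl/fl libraries, at least 81.7-fold lower (adjusted p = 0.225, edgeR). The constitutive Hspa8 was nominally lower without overlap (3982, 3607 and 3536 CPM in Vav1CreTet2KO, against 5228, 4927 and 4901 CPM in Tet2fl/fl libraries), Hspa5 of the endoplasmic reticulum overlapped with a log2 fold change of -0.05, and Dnaja1 was positive at 0.63 without passing.

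MHC class II genes, which present peptides to CD4 T cells and in mice are made mainly by antigen-presenting cells, were in part higher. Of 10 tested genes, 4 were nominally higher and 0 nominally lower, and the median was 1.63. H2-Ab1 had 686, 807 and 268 CPM in Vav1CreTet2KO libraries, against 71.6, 57.1 and 128 CPM in Tet2fl/fl libraries (log2 fold change 2.76 ± 0.47, adjusted p = 0.110, edgeR). Cd74, the invariant chain, had 1099, 1000 and 773 CPM in Vav1CreTet2KO, against 263, 144 and 373 CPM in Tet2fl/fl libraries (1.87 ± 0.36, adjusted p = 0.110). H2-Aa and H2-Eb1 were nominally higher too, none of the 4 overlapped between groups, and all 4 passed without replicate 3 (edgeR). H2-Oa, a modulator of peptide loading, was negative (0, 5.94 and 6.33 CPM in Vav1CreTet2KO, against 10.6, 22.5 and 12 CPM in Tet2fl/fl libraries). Of the dendritic cell markers, Itgax, which encodes CD11c, had 33.9, 51.3 and 68.0 CPM in Vav1CreTet2KO, against 9.29, 4.09 and 11.5 CPM in Tet2fl/fl libraries. The 4 conventional dendritic cell markers summed to 151, 83.8 and 76.7 CPM in Vav1CreTet2KO, against 46.3, 27.4 and 69.4 CPM in Tet2fl/fl libraries, without overlap. Each of the 4 overlapped on its own, and Clec9a alone gave 146 CPM of the sum in the shallow replicate 1. On the longer dendritic cell list of 9 tested genes, 7 were positive and 2 negative, with 1 nominally higher and 1 nominally lower. On the plasmacytoid dendritic cell list of 8 tested genes, given above, 4 were nominally higher and 0 nominally lower. The part of dendritic cells of either kind in the MHC class II values was not tested.

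Of 8 tested genes on the list of NK receptors, which cytotoxic T cells share in part, 4 were nominally higher and 1 nominally lower. On all libraries edgeR called none of them and DESeq2 called these 5. Klrk1, which encodes NKG2D, had 25.5, 32.4 and 42.2 CPM in Vav1CreTet2KO libraries, against 0.324, 0.130 and 2.76 CPM in Tet2fl/fl libraries (log2 fold change 4.95 ± 1.20, adjusted p = 0.153, edgeR). Klrc1, of the NKG2 family, had 25.5, 15.6 and 15.95 CPM in Vav1CreTet2KO libraries, against 1 read in all Tet2fl/fl libraries together, a ratio of 658 with a counting interval of 117 to 26100. Klrd1, its partner CD94, had 79.2, 22.6 and 16.1 CPM in Vav1CreTet2KO, against 1.30, 1.56 and 4.04 CPM in Tet2fl/fl libraries. The 3 genes and the adaptor gene Tyrobp (198, 225 and 78.3 CPM in Vav1CreTet2KO, against 13.6, 2.99 and 26.3 CPM in Tet2fl/fl libraries) did not overlap between the groups. Tyrobp is also made by myeloid cells. The marker sum of macrophages and monocytes overlapped between the groups. That of plasmacytoid dendritic cells overlapped only through the shallow replicate 1, as given above. That of conventional dendritic cells did not overlap, although each of its 4 genes did. The 3 neutrophil markers summed to 4.24, 1.9 and 12.9 CPM in Vav1CreTet2KO, against 1.08, 0.519 and 0.245 CPM in Tet2fl/fl libraries, and did not overlap either. These sums are low, and that of the shallow replicate 1 equals its limit of 3 reads. S100a8 and Csf3r each overlapped between the groups, whereas S100a9 did not. The longer neutrophil list of 10 genes summed to 4.24, 70.6 and 79.1 CPM in Vav1CreTet2KO, against 11.2, 4.61 and 12.2 CPM in Tet2fl/fl libraries. These longer sums overlapped through the shallow replicate 1. The 4 tested genes of that list were all positive, and 1 was nominally higher. The part of such cells in the Tyrobp values was not tested. The 3 NK cell markers (Klrb1c, Ncr1 and Klra7) summed to 0, 5.79 and 29.9 CPM in Vav1CreTet2KO, against 6.05, 0.0649 and 28.2 CPM in Tet2fl/fl libraries, and overlapped. These levels are low, and in the shallow replicate 1 a count of 0 allowed up to 4.24 CPM for each gene. The part of NK cells in the receptor values was not tested. Cytotoxic effector genes as a list had 5 of 17 tested genes nominally higher, among them Klrk1, Klrc1 and Klrd1, with a median of 0.43. Gzmb had 143, 181.8 and 42.7 CPM in Vav1CreTet2KO, against 110, 42.7 and 115 CPM in Tet2fl/fl libraries, and overlapped. Eomes, described above, was the nominally lower gene of the NK receptor list.

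Helper genes gave mixed values. Ccl5, a chemokine of effector T cells, had 495, 370 and 167 CPM in Vav1CreTet2KO libraries, against 106, 110 and 150 CPM in Tet2fl/fl libraries (log2 fold change 1.47 ± 0.37, adjusted p = 0.153, edgeR). Ccr2, the receptor that draws cells to inflamed tissue, had 338, 323 and 274 CPM in Vav1CreTet2KO, against 135, 116 and 70.5 CPM in Tet2fl/fl libraries. Neither gene overlapped. Of 13 Th1 genes, Ccl5, Cxcr6 and Il12rb2 were nominally higher and 0 lower. Of 10 tested follicular helper genes, 3 were nominally higher and 2 nominally lower (2 and 2 without replicate 1). Among the lower genes, Il4ra had 257.4, 116.8 and 271.5 CPM in Vav1CreTet2KO, against 283.8, 418 and 394.5 CPM in Tet2fl/fl libraries, without overlap. Among the higher genes, Bcl6, the factor of follicular helper cells, had 110, 45.3 and 25.97 CPM in Vav1CreTet2KO, against 9.61, 13.4 and 20.8 CPM in Tet2fl/fl libraries. The costimulatory receptor gene Icos had 781, 450 and 196 CPM in Vav1CreTet2KO, against 268, 190 and 145 CPM in Tet2fl/fl libraries, with overlap. Without replicate 1 the log2 fold change of Bcl6 was 1.31, against 1.99 with it, and that of Icos was 0.70, against 1.20 with it. In the opposite direction, Gata3, the Th2 factor, had 188.1, 142 and 191 CPM in Vav1CreTet2KO, against 351, 290 and 256 CPM in Tet2fl/fl libraries, and Il1rl1, the interleukin 33 receptor found on Th2 and regulatory T cells, had 5.66, 95.5 and 62.1 CPM in Vav1CreTet2KO, against 222, 169 and 127 CPM in Tet2fl/fl libraries. Of the Th17 list, Il1r1 was nominally lower and Il22 nominally higher, but Il22 rested largely on 1 library, with 0, 10.96 and 1.06 CPM in Vav1CreTet2KO libraries, against 2 reads in all Tet2fl/fl libraries.

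Naive and memory T cell genes had a median of 0.09 over 20 tested genes, with 2 nominally higher and 1 nominally lower. The direction turned on 1 library, since the median was 0.14 without replicate 1 and -0.75 without replicate 3, where edgeR called 4 members lower. Ly6c2, a surface marker of memory and effector cells, had 17.0, 102 and 45.5 CPM in Vav1CreTet2KO libraries, against 9.39, 7.60 and 9.43 CPM in Tet2fl/fl libraries, and Dapl1 had 25.5, 39.96 and 16.5 CPM in Vav1CreTet2KO, against 3.67, 2.21 and 8.33 CPM in Tet2fl/fl libraries. Both were nominally higher without overlap. Tcf7, the factor of naive and stem-like T cells, had 414, 268 and 1595 CPM in Vav1CreTet2KO, against 668, 794 and 1267 CPM in Tet2fl/fl libraries, with Vav1CreTet2KO libraries both below and above the Tet2fl/fl range.

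Genes of translation and respiration were mostly higher, although edgeR called no member on all libraries. Of 43 ribosomal protein genes on the list, 27 were nominally higher and 0 nominally lower, 23 did not overlap and the median was 0.72. Rps23 had 5778, 5305 and 1858 CPM in Vav1CreTet2KO libraries, against 1500, 1528 and 1732 CPM in Tet2fl/fl libraries (log2 fold change 1.42 ± 0.33, adjusted p = 0.150, edgeR). Replicate 3 lay just above the Tet2fl/fl range and the other Vav1CreTet2KO libraries lay far above it. All ribosomal protein genes together took 9.04 ± 1.5% of reads in Vav1CreTet2KO, against 5.74 ± 0.968% in Tet2fl/fl libraries (SD, n = 3 each; exact permutation p = 0.1). Mitochondrially encoded genes took 2.70 ± 0.736% in Vav1CreTet2KO, against 1.65 ± 0.0879% in Tet2fl/fl libraries (exact permutation p = 0.1), and 11 of 13 were nominally higher with a median of 0.87. mt-Cytb, the cytochrome b of complex III, had 4555, 3456 and 2139 CPM in Vav1CreTet2KO, against 1633, 1337 and 1555 CPM in Tet2fl/fl libraries. The lists had 26 and 10 nominally higher genes without replicate 1. Nuclear genes of oxidative phosphorylation had a median of 0.68 with 6 of 21 nominally higher, and a median of 0.43 with 4 nominally higher without replicate 1. DESeq2 called 7 ribosomal, 5 mitochondrial and 2 nuclear oxidative phosphorylation genes, all higher. Without replicate 3 edgeR called 13, 10 and 3 of them, all higher.

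The cell cycle list of 32 genes had a median of 0.73 with 6 nominally higher and 0 nominally lower. Cenpe, a kinesin of the kinetochore, had 372, 197 and 53.1 CPM in Vav1CreTet2KO libraries, against 29.1, 44.7 and 23.1 CPM in Tet2fl/fl libraries. Mki67, the proliferation marker, had 918, 1309 and 733 CPM in Vav1CreTet2KO, against 838, 565 and 685 CPM in Tet2fl/fl libraries, and Top2a had 356, 376 and 212 CPM in Vav1CreTet2KO, against 256, 134 and 200 CPM in Tet2fl/fl libraries; both overlapped. Glycolysis genes were nominally lower for 4 of 15 and higher for 0, with a median of -0.23 that was -0.04 without replicate 3, among them the phosphofructokinase gene Pfkl with 60.8, 30.1 and 38.4 CPM in Vav1CreTet2KO, against 109, 77.8 and 118 CPM in Tet2fl/fl libraries. Of 14 tested genes on the integrin and retention list, 2 were nominally higher and 4 nominally lower, 10 were negative and the median was -0.24. The nominally higher genes were Itgb1 (764, 514 and 852 CPM in Vav1CreTet2KO, against 259, 184.96 and 345 CPM in Tet2fl/fl libraries) and Cd44 (618, 476 and 403 CPM in Vav1CreTet2KO, against 270, 231 and 276 CPM in Tet2fl/fl libraries). Itgae and Itgav were among the nominally lower genes.

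**Figure D4:**
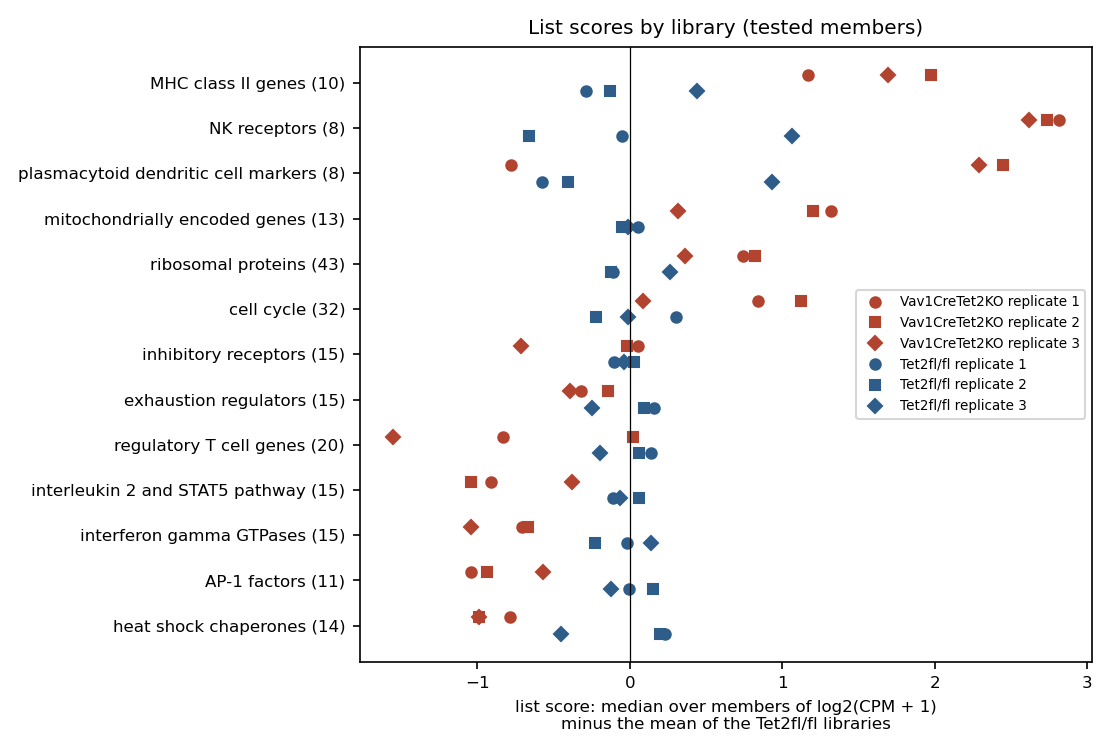
List score of each library, the median over tested members of log2(CPM + 1) minus the mean of the Tet2fl/fl libraries, for 13 lists with the number of tested members in brackets. Vav1CreTet2KO libraries (red) lie above all Tet2fl/fl libraries (blue) for the MHC class II, NK receptor, mitochondrial and ribosomal lists and below them for the last 4 lists, while the plasmacytoid dendritic cell, cell cycle, inhibitory receptor, exhaustion and regulatory T cell lists overlap.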

How the data were processed

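CD4 libraries were analysed from the table of read counts per gene deposited by the authors, 25639 genes with 9 CD4 libraries per the file headers. Libraries were made with a SMARTer Stranded Total RNA kit (Pico input), per the labels' protocols. The submitters' processing notes name GRCm38 and mm10, and no source used here gives the aligner or counter. The 27 other per-sample columns and the authors' own comparisons were not used.

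Genes kept by filterByExpr (min.count 10, min.total.count 15) were normalized by TMM and fitted in edgeR 4.0.16 under R 4.3.3 (quasi-likelihood test, robust), with all 9 CD4 libraries in 1 fit and Benjamini-Hochberg adjustment at 0.05. CPM values use TMM factors. Standard errors are the log2 fold change over the square root of F. Alternatives used DESeq2 1.42.0, voom with quality weights (limma 3.58.1), RLE size factors, no filter, the 6 libraries alone, a replicate block, halved and thinned counts, removal of heat shock, ribosomal and mitochondrial genes, and leaving out each library. The fit was tested on simulated data.

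Genes named by rule were Tet2, called genes and the 3 members of smallest p in 14 lists; other members are named for their roles. The comparison, the 46 lists and their 598 genes, 4 of them not analysed here, were chosen with earlier results of these data known.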

Additional observations from a re-analysis of the deposited data

How the results depend on the processing

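The count of called genes depended on the tool, the filter and the libraries. It was 1 with RLE size factors, voom, the 6 libraries alone, halved or thinned counts, and without heat shock, ribosomal and mitochondrial genes. It was 383 without a filter (274 higher, 109 lower) and 581 with DESeq2 (332 higher, 249 lower); the cause was not tested. Leaving out 1 library gave 0 to 819 called genes, 0 to 396 higher and 0 to 423 lower. No gene was called by edgeR on leaving out Tet2fl/fl replicate 1 or 2 (with 1264 and 1129 genes at an unadjusted p under 0.05); the 819 came from leaving out Vav1CreTet2KO replicate 3. The Tet2 log2 fold change lay between -0.34 and 0.15 and was positive, 0.04 and 0.15, without Vav1CreTet2KO replicate 3 and without Tet2fl/fl replicate 2. With the replicate number as a block, 3 genes were called, 1 higher and 2 lower. The deviations of same-numbered Vav1CreTet2KO and Tet2fl/fl libraries from their group means had correlations of 0.01, -0.06 and -0.01. The numbers name different animals in each genotype. A shared batch was not tested, since the labels give none. Of the comparisons of single genes over alternatives, 548 stayed on the same side of the threshold, nearly all of them uncalled in both settings; 65 gained a call, 2 lost it, both for Ccnb1ip1, and 0 reversed. The 707866 reads of Vav1CreTet2KO replicate 1 limit what can be seen of genes with low counts.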

Other observations

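Histone genes were looked at after their values were seen, so no test is given for them as a group. Of 61 tested genes, 35 were nominally higher in Vav1CreTet2KO libraries and 0 nominally lower at an unadjusted p under 0.05, against 6.72% and 5.21% of all tested genes, and the median log2 fold change was 1.89. Summed over these genes the level was 8773, 12290 and 3672 CPM in Vav1CreTet2KO libraries, against 2024, 1841 and 1847 CPM in Tet2fl/fl libraries. The Cd4CreTet2KO libraries, set against the same Tet2fl/fl libraries, had 3890, 2227 and 2622 CPM. The core histone gene H2bc4 had 803, 617 and 38.6 CPM in Vav1CreTet2KO libraries, against 39.4, 41.6 and 26.9 CPM in Tet2fl/fl libraries, so replicate 3 was within the Tet2fl/fl range for this gene. The linker histone gene H1f4 had 620, 475 and 286 CPM in Vav1CreTet2KO, against 124, 121 and 162 CPM in Tet2fl/fl libraries, and did not overlap. Many of these genes are near-identical in sequence, and reads may be split among them by the counting.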
